A study of Mus musculus with 9 samples.

Results

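The mitochondrial fatty acid oxidation genes examined here are Cpt1a, Cpt1b, Cpt2, Acadvl, Acadl, Acadm, Hadha, Hadhb and Pdk4. They were taken by symbol and are 9 of the 32285 genes in each count matrix. All 9 had UMIs (unique molecular identifiers, tags by which each captured RNA molecule is counted once) in adipocytes of every library.

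Gene expression was measured by single-nucleus RNA sequencing in epididymal adipose tissue, a visceral fat depot, of male C57BL/6J mice, with nuclei of 5 mice pooled in each of 9 libraries and 1 library per diet group. C, CC and CCC were chow controls of 18, 26 and 39 weeks of age, and by the methods of the study C ate the low-fat control diet whereas CC and CCC had been moved to a standard chow. H and HH had eaten high-fat diet (HFD) for 12 and 25 weeks and were 18 and 31 weeks old, and HC and HHC had the same 12 or 25 weeks of HFD followed by 8 weeks of chow, at 26 and 39 weeks of age. HCH followed the HC course and then had HFD again for 4 weeks, and CCH had HFD for the first time for 4 weeks, both at 30 weeks of age. An age-matched control for HH was not analysed here, so HH was set against CC.

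A fatty acid enters the mitochondrion as an acyl-carnitine, made on the outer membrane by carnitine palmitoyltransferase 1 and turned back into acyl-CoA inside by carnitine palmitoyltransferase 2. Each turn of β-oxidation then begins with an acyl-CoA dehydrogenase matched to the chain length, and the trifunctional protein carries out the remaining steps for long chains. Pyruvate dehydrogenase kinase 4 is no enzyme of this spiral, but it switches off pyruvate dehydrogenase and so favours fat over glucose as fuel, and it is induced by fatty acids and fasting. White adipocytes mainly store and release fatty acids and oxidise few of them compared with muscle, liver or brown fat.

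The libraries held 22599619 to 66615262 UMIs, and 76356 of 91687 nuclei passed the limits on genes and UMIs. A nucleus was put in a cell class when at least 3 marker genes of that class stood above their mean rate in the library. No other class could come within a factor of 2. This placed 33.3% of nuclei in CCC and 40.04 to 60.9% in the other libraries. The adipocyte gate held 193 nuclei and 829116 UMIs in H, the fewest, and 2149 nuclei and 11313636 UMIs in C, the most. Without the limit of 3000 genes per nucleus it held 591 nuclei in H, 1018 in HH in place of 456 and 931 in HHC in place of 402. CCH then had 2175 in place of 670 and HCH 1399 in place of 365. In C, CC, CCC and HC it held 2692, 1038, 877 and 1010 in place of 2149, 690, 691 and 786. The nuclei under the limit, used for the main values, were thus a minority in H, HH, HHC, CCH and HCH. All 8 adipocyte genes kept out of the gate were detected in these nuclei in every library, at a summed 6047 to 16388 CPM (UMIs of a gene scaled to a common total per library and class), and of 7 brown and beige adipocyte genes Ucp1 and Elovl3 were at 0 in all 9. The 7 summed to 20.9 to 61.8 CPM in the chow libraries, 112 and 154 CPM in H and HH, 248 and 204 CPM in HC and HHC, 29.1 CPM in CCH and 98.9 CPM in HCH, and their part in the results was not tested. Macrophage RNA in the adipocyte gate moved with diet, since 8 macrophage genes kept out of the gate summed to 58.3 to 118 CPM in the chow libraries, 1028 and 1167 CPM in H and HH, 212 and 977 CPM in HC and HHC, 130 CPM in CCH and 1027 CPM in HCH, with Cd14 at 0 in HC. No pair of libraries shared more than 55 barcodes. The library labels also name a sequencing set, S075 for C, H, HH, CCH and HCH and S019 for the others, so HFD and weight loss never shared a set, and the pairs HH with CC and CCH with CC cross sets.

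On the mouse genome (build GRCm38) Cpt1a lies at chr19:3322334-3385733, Cpt1b at chr15:89416405-89425863, Cpt2 at chr4:107903981-107923610, Acadl at chr1:66830839-66863277, Acadm at chr3:153922357-153944632, Acadvl at chr11:70010183-70015411 and Pdk4 at chr6:5483351-5496309. All are protein-coding. Cpt1a is on the plus strand and the other 6 are on the minus strand. Hadha, at chr5:30118304-30155162 on the minus strand, and Hadhb, at chr5:30155248-30184593 on the plus strand, stand head to head with 85 bases between them. By these gene ends (GENCODE) both genes, which encode the subunits of one enzyme complex, start from the same stretch. That stretch is shown because the pair is followed as a unit in the values that come next, and the Pdk4 promoter is shown because Pdk4 was the member that edgeR called in adipocytes. Acadvl overlaps Dvl2 on the opposite strand by 2119 bases, and Cpt1b lies inside the gene model Gm44502, which the matrices do not list.

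The sequence between Hadha and Hadhb (chr5:30155163-30155247, GRCm38, plus strand) holds the GC box letters GGGCGG at its first base and at base 66, in capitals. The Pdk4 sequence (chr6:5496310-5496528, GRCm38, minus strand) covers the 219 bases before the gene, with ATTGG, the reverse complement of CCAAT, in capitals from base 120.
between Hadha and Hadhb: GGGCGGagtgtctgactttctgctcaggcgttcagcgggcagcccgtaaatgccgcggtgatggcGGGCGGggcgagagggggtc
Pdk4 promoter: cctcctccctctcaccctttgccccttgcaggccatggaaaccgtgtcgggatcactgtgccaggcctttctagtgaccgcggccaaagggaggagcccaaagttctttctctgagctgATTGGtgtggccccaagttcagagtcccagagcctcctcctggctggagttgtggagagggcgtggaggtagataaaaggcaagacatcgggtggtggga
RefSeq promoter sequences (assembly GRCm38.p6, 250 bases before to 50 after each start) matched 8 of the 9 genes, all but Cpt1b. They place the start of Hadha inside the gene as given above, with the GC box of its promoter at base -188. Both strands were searched, and every match of AGGTCANAGGTCA or TCAAGGTCA is also a match of AGGTCA. The GC box was found in the promoters of Acadl, Cpt1a, Cpt2, Hadha and Hadhb, and in 35.9% of all 32544 promoters. The CCAAT box was found in Cpt1a and Pdk4 and in 37.4% of all, and the nuclear receptor site AGGTCA in Acadm, Acadvl and Cpt1a and in 16.2% of all. The direct repeat AGGTCANAGGTCA that PPARs bind was in no member and in 0.0399% of all promoters. TCAAGGTCA, GTAAACA and TATAAA were also in no member and in 0.412%, 3.66% and 13.6% of all.

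In the adipocyte gate Pdk4 was the member that edgeR called with HFD. It was 4.83-fold or more higher in both long HFD libraries than in each chow library, was close to chow after weight loss, and was 3.39-fold higher in the pool that met HFD again than in the pool that met it for the first time. By plain CPM Cpt1b, Acadl, Acadm, Hadha and Hadhb also lay above all chow libraries in both HFD libraries, and edgeR called none of them. Such a separation, Pdk4 included, was seen for 37.1% of genes tested. With TMM factors, the scaling used by edgeR, Acadl and Acadm did not keep it. Cpt1b was 11.1-fold higher in H than in C, on 13 and 16 UMIs. Cpt1a, Cpt2 and Acadvl overlapped with chow. With 1 library per group the ratio of a pair has no error between samples. The intervals in brackets are exact 95% intervals of counting error, and a member was counted as higher or lower in a pair when the ratio reached 1.5-fold with an interval clear of 1. For 2 diet states an edgeR quasi-likelihood fit took the libraries of a state as replicates (chow C, CC and CCC, HFD H and HH, weight loss HC and HHC). Its p-values measure the spread between libraries that also differ in age, weeks of diet and sequencing set. The chow libraries differ in control diet as well, with C apart from CC and CCC. The HFD and weight loss comparisons share the chow libraries.

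Cpt1a encodes the liver form of the carnitine palmitoyltransferase 1 that commits fatty acids to oxidation. In adipocyte-gated nuclei it was at 12.8, 30.1 and 36.7 CPM in C, CC and CCC, at 27.7 and 37.4 CPM in H and HH, at 37.3 and 41.9 CPM in HC and HHC, at 31.9 CPM in CCH and at 35.6 CPM in HCH. C was the low library, and the other 8 lay close together. Accordingly Cpt1a was 2.16-fold higher in H than in C (log2 ratio 1.11, 0.41 to 1.75), whereas HH with CC gave a log2 ratio of 0.31 (-0.13 to 0.75). Both weight loss libraries were above all 3 chow libraries, but narrowly. In the edgeR fit the log2 fold change of Cpt1a was 0.13 (SE 0.387, adjusted p = 0.837) for HFD and 0.59 (SE 0.370, adjusted p = 0.586) for weight loss. Over 15 alternatives the HFD value ran from -0.18 to 0.99 and passed in 0.

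Cpt1b encodes the muscle form of the same enzyme and was sparse. It had 16, 7 and 11 UMIs in C, CC and CCC, 13 and 18 in H and HH, 9 and 19 in HC and HHC, 9 in CCH and 11 in HCH. As CPM this came to 1.41, 1.95 and 4.12 in chow, 15.7 and 9.11 in H and HH, 2.71 and 11.2 in HC and HHC, 2.57 in CCH and 6.76 in HCH. Both HFD libraries lay above all chow libraries, and the weight loss libraries were split, with HHC among the HFD values and HC among the chow values. The log2 ratio was 3.47 (2.30 to 4.62) for H with C, 2.22 (0.90 to 3.72) for HH with CC and 1.44 (0.30 to 2.66) for HHC with CCC. Pairs with fewer than 20 UMIs, here HC with CC and CCH with CC, were not read for Cpt1b. In the edgeR fit its HFD log2 fold change of 2.12 (SE 0.664) missed the threshold with an adjusted p of 0.0550. It passed in 5 of 15 alternatives, among them DESeq2 (adjusted p = 0.0341) and the edgeR fits without CCC (0.0397), HHC (0.0394) or HC (0.0358). Over the 15 the adjusted p ran from 0.00826 to 0.252, the highest without H, and the log2 fold change from 1.42, with no upper limit on genes per nucleus, to 2.65. Macrophage RNA was also higher in the adipocyte gate of H, HH, HHC and HCH, the libraries with the most Cpt1b. Macrophage-gated nuclei held 2.61 to 8.84 CPM of Cpt1b, and its part in the adipocyte values was not tested.

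Cpt2 encodes the inner-membrane partner that releases the acyl group from carnitine. It was at 64.7, 38.2 and 35.9 CPM in C, CC and CCC, at 56.7 and 47.0 CPM in H and HH, at 33.4 and 20.1 CPM in HC and HHC, at 46.2 CPM in CCH and at 42.4 CPM in HCH. Here C was the high library, the opposite of Cpt1a, and HFD lay within the chow range. By plain CPM weight loss lay below that range, with HHC lowest at a log2 ratio to CCC of -0.84 (-1.45 to -0.26). HC with CC gave -0.19 (-0.57 to 0.18). With TMM factors of 0.889 for HC and 1.05 for CCC, HC was no longer below CCC. The edgeR fit did not call Cpt2 for weight loss (log2 fold change -0.83, SE 0.412, adjusted p = 0.484). With 1 library left out this value ranged from -1.44 to -0.40.

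**Figure D1:**
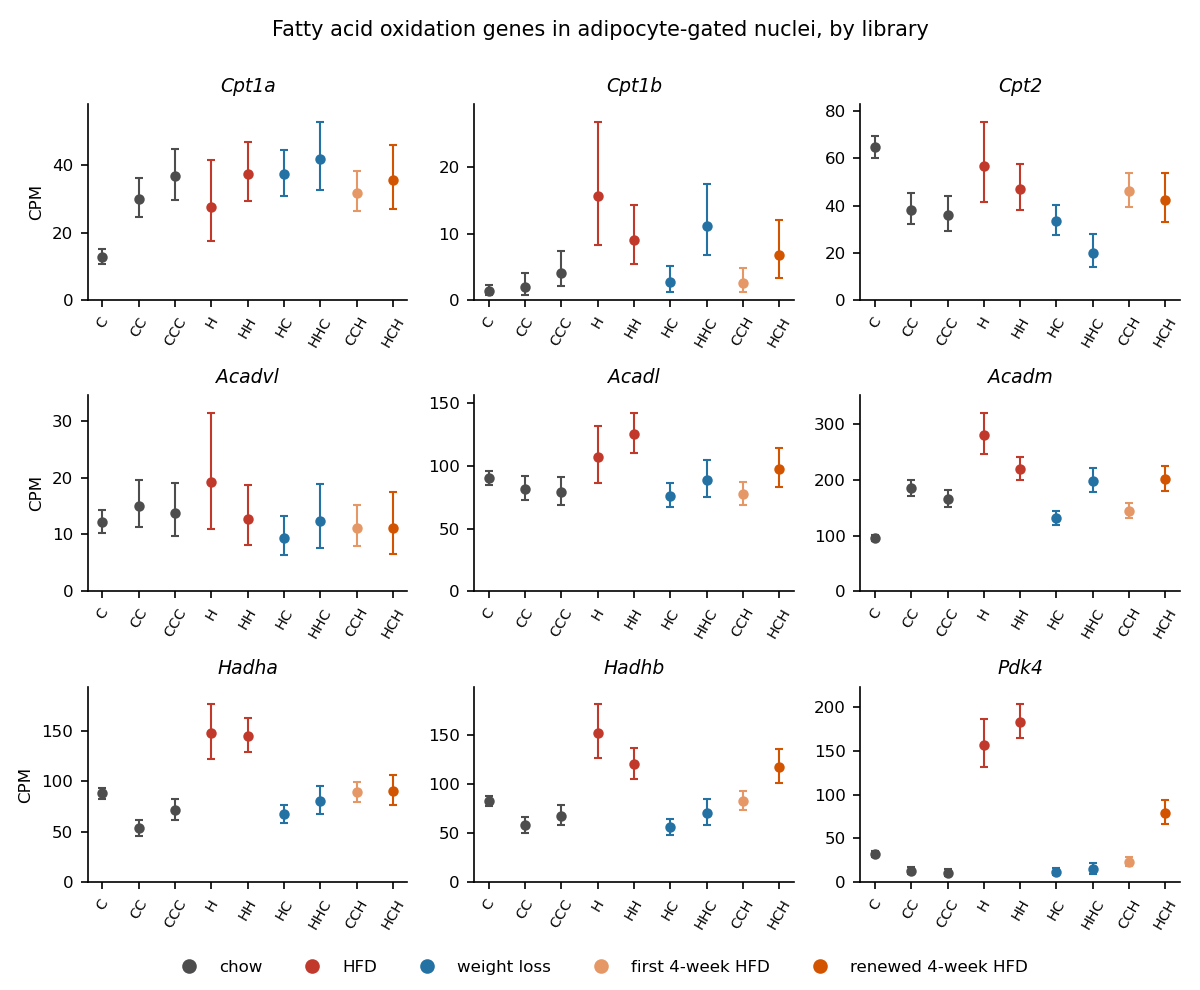
CPM of each gene in adipocyte-gated nuclei (y axis, linear, from 0) for the 9 libraries (x axis), with 1 point per library and exact Poisson 95% bars that cover counting error only; colours give the diet state. Pdk4 stood at 157 and 183 CPM in H and HH against 10.5 to 32.4 in the chow libraries, while Acadvl stayed between 9.32 and 19.3 throughout.

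Acadvl encodes the very-long-chain acyl-CoA dehydrogenase, which takes the first step on the longest chains. It was at 12.1, 15.1 and 13.9 CPM in C, CC and CCC, 19.3 and 12.6 CPM in H and HH, 9.32 and 12.4 CPM in HC and HHC, 11.1 CPM in CCH and 11.1 CPM in HCH. H was the highest and HC the lowest, with H above and HC below every chow library and HH and HHC among them. HC with CC gave a log2 ratio of -0.69 (-1.38 to -0.03) on 31 and 54 UMIs, an interval that just cleared 0. The edgeR fit gave adjusted p = 0.890 for HFD and 0.674 for weight loss.

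Acadl, the long-chain dehydrogenase, was at 90.2, 82.0 and 79.4 CPM in C, CC and CCC and at 107 and 125 CPM in H and HH. It was at 76.4 and 89.1 CPM in HC and HHC, 77.5 CPM in CCH and 97.7 CPM in HCH. By plain CPM both HFD libraries were above every other library, by small margins. The log2 ratio was 0.25 (-0.08 to 0.57) for H with C and 0.61 (0.36 to 0.86) for HH with CC. With TMM factors H was below C, at -0.32 (-0.65 to -0.01). The edgeR log2 fold change for HFD was 0.21 (SE 0.228, adjusted p = 0.524).

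Acadm encodes the medium-chain dehydrogenase, which shortens what the long-chain enzymes leave. It was at 95.02, 186 and 165.5 CPM in C, CC and CCC, at 281 and 220.0 CPM in H and HH, at 132 and 198 CPM in HC and HHC, at 145 CPM in CCH and at 201 CPM in HCH. C was again far from CC and CCC, which differ from it in age, control diet and sequencing set. H was thus 2.96-fold above C (log2 ratio 1.56, 1.35 to 1.77) while HH was only 1.19-fold above CC (0.25, 0.07 to 0.42). The edgeR log2 fold change was 0.51 for HFD (SE 0.283, adjusted p = 0.221) and 0.10 for weight loss (SE 0.284, adjusted p = 0.923). With sequencing set as a covariate the HFD value was 1.002 and passed (edgeR adjusted p = 0.0473), the 1 of 15 alternatives in which it did.

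Hadha and Hadhb encode the alpha and beta subunits of the trifunctional protein. Hadha was at 87.9, 53.2 and 71.1 CPM in C, CC and CCC, at 147 and 145 CPM in H and HH, at 67.4 and 80.8 CPM in HC and HHC, at 88.9 CPM in CCH and at 90.3 CPM in HCH. Hadhb was at 82.8, 58.3 and 67.8 CPM in C, CC and CCC, at 152 and 120.4 CPM in H and HH, at 55.9 and 70.8 CPM in HC and HHC, at 82.4 CPM in CCH and at 117 CPM in HCH. Both genes were high in H and HH, with no overlap with chow, and the weight loss libraries lay among the chow values except that Hadhb in HC was slightly below them.

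The log2 ratio of H with C was 0.74 (0.46 to 1.02) for Hadha and 0.88 (0.60 to 1.15) for Hadhb. HH with CC gave 1.44 (1.17 to 1.71) for Hadha and 1.05 (0.77 to 1.32) for Hadhb. HCH with CCH gave 0.02 (-0.27 to 0.31) for Hadha and 0.51 (0.24 to 0.78) for Hadhb, both under 1.5-fold and with intervals that overlap. In the edgeR fit neither passed for HFD. The log2 fold change was 0.77 for Hadha (SE 0.269, adjusted p = 0.0756) and 0.69 for Hadhb (SE 0.255, adjusted p = 0.0886), on both H and HH. Without the C library, or with plain library totals in place of TMM scaling, both passed, with edgeR adjusted p = 0.0143 and 0.0289 for Hadha and 0.0221 and 0.0322 for Hadhb. These were 2 of 15 alternatives. With sequencing set as a covariate the log2 fold change was 0.34 for Hadha (edgeR adjusted p = 0.308) and 0.32 for Hadhb (0.360). Without H the edgeR adjusted p was 0.269 for Hadha and 0.400 for Hadhb, and without HH it was 0.325 and 0.267.

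Pdk4 encodes the kinase that holds pyruvate dehydrogenase inactive. It was at 32.4, 12.8 and 10.5 CPM in C, CC and CCC, at 157 and 183 CPM in H and HH, at 12.0 and 15.3 CPM in HC and HHC, at 23.4 CPM in CCH and at 79.2 CPM in HCH. The 2 long HFD libraries were far above the rest, HCH came next, and weight loss lay within the chow range. These levels rest on 130 UMIs in H and 361 in HH, and on 26 to 367 UMIs in the other libraries.

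Against its controls Pdk4 was 4.83-fold higher in H than in C (log2 ratio 2.27, 1.97 to 2.57) and 14.2-fold higher in HH than in CC (3.83, 3.39 to 4.31). With TMM factors these log2 ratios were 1.70 (1.40 to 1.99) and 3.56 (3.11 to 4.03). By plain totals Pdk4 ranked 1134 of 13217 genes from the highest ratio in H with C, and 345 of 12559 in HH with CC. Against C, the chow library of its own sequencing set, HH was 5.63-fold higher (2.49, 2.28 to 2.71). Pdk4 rose with HFD in the edgeR fit, by 2.83 on the log2 scale (SE 0.478, adjusted p = 0.0102), and DESeq2 gave 2.85 with an adjusted p of 5.47e-07. Over 15 alternatives the log2 fold change of Pdk4 stayed between 2.004 and 3.66 and the adjusted p between 9.55e-15 and 0.0996, with 13 of 15 under 0.05. The exceptions were the edgeR fits without H (2.94, adjusted p = 0.0507) and without HH (2.67, adjusted p = 0.0996). With sequencing set as a covariate the edgeR value was 2.004 (adjusted p = 0.0130).

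After weight loss the log2 ratio of Pdk4 was -0.09 (-0.74 to 0.55) for HC with CC and 0.55 (-0.28 to 1.37) for HHC with CCC. The edgeR log2 fold change for weight loss was -0.61 (SE 0.525, adjusted p = 0.698). With 4 weeks of HFD, HCH was above CCH by a log2 ratio of 1.76 (1.35 to 2.18), within 1 sequencing set and at 1 age. CCH was above CC by 0.87 (0.33 to 1.42), but below C by -0.47 (-0.84 to -0.12), so the direction of the first short course depends on the control.

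The share of nuclei with Pdk4 and the UMIs per such nucleus were both higher in H and HH. Pdk4 UMIs were found in 13.4, 6.38 and 3.76% of adipocyte-gated nuclei in C, CC and CCC, in 30.6 and 31.8% in H and HH, in 4.71 and 4.73% in HC and HHC, in 9.55% in CCH and in 18.4% in HCH. With every nucleus thinned to 2000 UMIs the shares were 5.93, 2.05 and 1.89% in chow, 15.2 and 19.3% in H and HH, 2.27 and 2.91% in HC and HHC, 4.14% in CCH and 10.7% in HCH, with H, HH and HCH again the highest. Nuclei with fewer UMIs were left out of the thinned shares, 22 in H, 27 in HH and 6 to 58 in the others. Most nuclei of the HFD libraries thus had no Pdk4 UMI at this depth. A nucleus with any had 2.20 UMIs on average in H and 2.49 in HH against 1.05 to 1.28 in the chow libraries, and 1 nucleus of HH had 26.

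**Figure D2:**
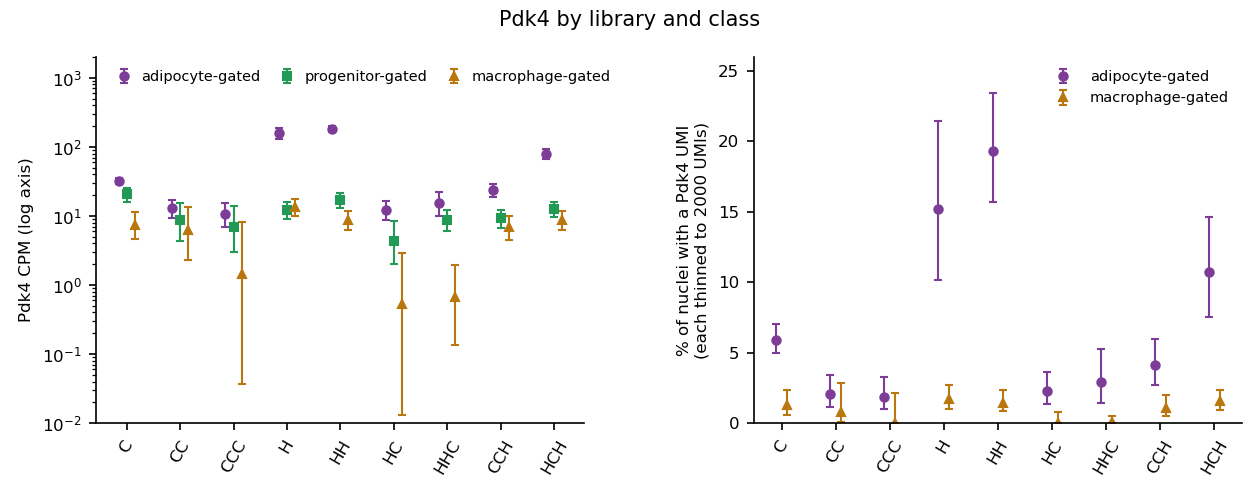
Left, Pdk4 CPM by library on a log axis in adipocyte-, progenitor- and macrophage-gated nuclei with exact Poisson 95% bars; right, the percent of nuclei with a Pdk4 UMI after thinning each nucleus to 2000 UMIs, with exact Clopper-Pearson 95% bars. Adipocyte-gated nuclei reached 15.2% in H and 19.3% in HH, and macrophage-gated nuclei stayed at or under 1.71% in every library.

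Macrophage-gated nuclei had a Pdk4 UMI in 0.188 to 3.20% of nuclei before thinning. They had a median of 2233.5 to 3948 UMIs per nucleus, against 3306 to 5430 in the adipocyte gate. Their Pdk4 level was 13.3 CPM in H and 8.69 CPM in HH, against 157 and 183 CPM in the adipocyte gate. The macrophage genes in the adipocyte gate summed to 1028 and 1167 CPM in H and HH and to 977 CPM in HHC, where Pdk4 was at 15.3 CPM. The part of macrophage RNA in the adipocyte values of Pdk4 was not tested.

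Taking the 9 members as a group, 6 were higher in H than in C (Cpt1a, Cpt1b, Acadm, Hadha, Hadhb, Pdk4), where 31.4% of 13217 genes tested were higher, and none was lower, where 9.06% of genes were. Their median log2 ratio was 0.88, against 0.31 over all genes tested. Scaling by TMM factors shifts every log2 ratio of this pair by -0.57 and leaves 3 members higher (Cpt1b, Acadm, Pdk4), against 18.3% of genes, and Cpt2 lower, against 26.8%. For HH with CC 5 members were higher (Cpt1b, Acadl, Hadha, Hadhb, Pdk4), against 33.8% of genes, and none was lower, against 14.9%. The TMM shift was -0.27 there, which took Acadl under the threshold, and -0.24 for HCH with CCH, where Pdk4 stayed higher. Against C, of its own sequencing set, HH was also higher for 5 members, but these were Cpt1a, Cpt1b, Acadm, Hadha and Pdk4, against 37.8% of genes. Cpt1a was then at 1.55 (1.12 to 1.96) and Acadm at 1.21 (1.05 to 1.37), and Acadl and Hadhb, at 0.48 (0.27 to 0.68) and 0.54 (0.33 to 0.75), were under 1.5-fold. By plain CPM both HFD libraries lay above all 3 chow libraries for 6 of the 9 (Cpt1b, Acadl, Acadm, Hadha, Hadhb, Pdk4). The same was seen for 37.1% of genes tested. Both lay below for none, as for 18.1% of genes. With TMM factors Acadl in H was below C (log2 ratio -0.32, -0.65 to -0.01). Acadm in HH was then level with CC (-0.03, -0.21 to 0.15). Neither kept the separation, and its share over all genes with TMM factors is not given.

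After weight loss few members differed in either pair. None was higher and Acadvl was lower in HC with CC, where 8.45% and 11.7% of genes were higher and lower. Cpt1b was higher and Cpt2 lower in HHC with CCC, where 11.8% and 8.29% of genes were. By plain CPM both weight loss libraries lay above all chow libraries for Cpt1a and below them for Cpt2, as for 11.2% and 12.4% of genes. With TMM factors HC was not below CCC for Cpt2. After the short courses Hadha and Pdk4 were higher in CCH than in CC and none was lower, against 13.4% and 13.2% of genes, and Pdk4 alone was higher in HCH than in CCH and none was lower, against 20.5% and 4.76% of genes. Against C, of its own sequencing set, CCH was not higher for Hadha (log2 ratio 0.02, -0.17 to 0.20) or Pdk4, while Cpt1a and Acadm passed (1.32, 0.95 to 1.68, and 0.60, 0.45 to 0.76), as did 13.6% of genes.

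**Figure D3:**
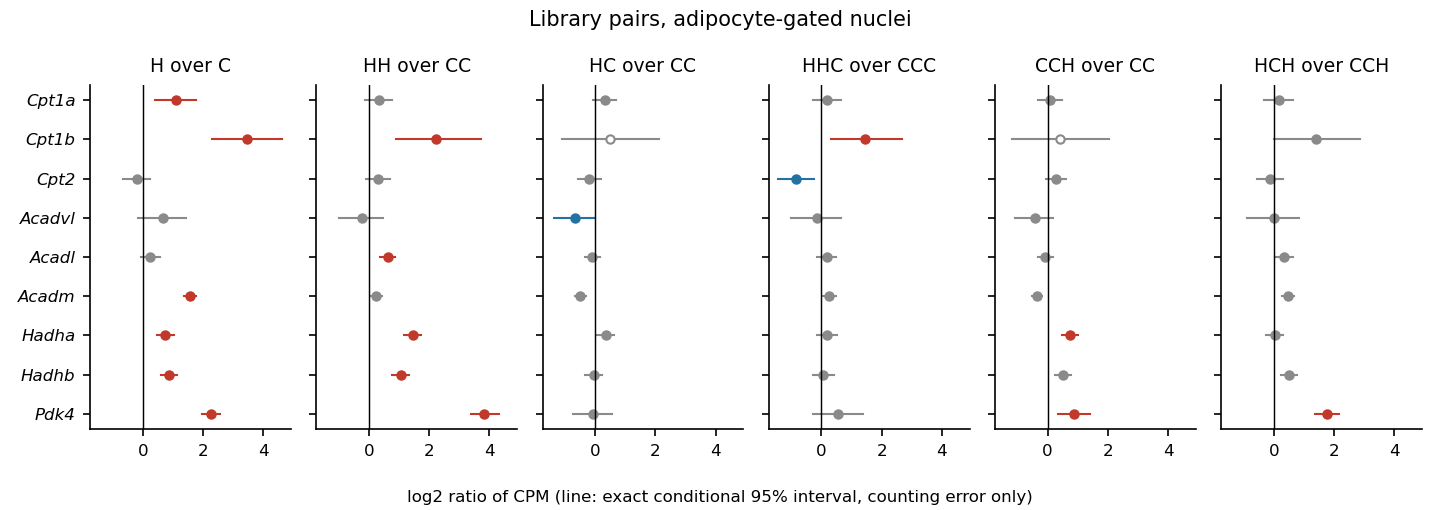
Log2 ratio of CPM in adipocyte-gated nuclei for the 9 genes in 6 library pairs, with exact conditional 95% intervals of counting error; red and blue mark ratios of at least 1.5-fold up or down with an interval clear of 0, and open circles mark pairs with too few UMIs. Pdk4 reached 2.27 in H over C, 3.83 in HH over CC and 1.76 in HCH over CCH, and lay at -0.09 and 0.55 in the weight loss pairs.

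In the edgeR fit of adipocyte-gated nuclei 1 of the 9 members (Pdk4) was higher with HFD and none was lower, against 11.5% and 5.64% of 13411 genes. At an unadjusted p under 0.05, 4 members passed, against 36.4% of genes. DESeq2 called 2 higher (Pdk4 and Cpt1b) and none lower, against 11.7% and 7.09% of genes. None of the 9 was called for weight loss, where 0.261% of genes were called in either direction. There none was under an unadjusted p of 0.05 either, against 11.5% of genes, and DESeq2 called 0. The median log2 fold change of the members was 0.51 for HFD and -0.08 for weight loss, against -0.04 and -0.04 over all genes.

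Levels of different genes are set side by side here per length of gene, since intronic reads were counted. Whether UMIs scale with gene length was not tested. In C the highest members were Acadm, with 4.27 CPM per kb of gene, and Cpt2, with 3.296, and Pdk4 was at 2.50. In HH Pdk4 was highest with 14.1 CPM per kb, before Acadm with 9.88, and in H it was close to Acadm, with 12.1 against 12.6. Without division by length Acadm was above Pdk4 in HH, at 220 against 183 CPM, and in H, at 281 against 157 CPM. Cpt1a and Cpt1b were the lowest, from 0.202 to 0.661 and from 0.1495 to 1.66 CPM per kb, in every library but HHC, where Cpt2 was at 1.02 and Pdk4 at 1.18 against 1.19 for Cpt1b.

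By class, the members did not share a site of highest level. Medians were taken over libraries with at least 50000 UMIs in the class. That left 3 libraries for mast cells, 5 for dendritic cells and 8 for B cells, and all 9 for the other classes. The median level of Cpt2, Acadm, Hadha, Hadhb and Pdk4 was highest in adipocyte-gated nuclei among 12 classes. Cpt1a went the other way. Its median was 133.6 CPM in macrophage-gated nuclei, the highest of the 12 classes, 74.5 CPM in progenitor-gated nuclei and 35.6 CPM in adipocyte-gated nuclei, the lowest. Acadm was at 36.4 to 77.4 CPM in progenitors and 48.1 to 79.0 CPM in macrophages, under the adipocyte range of 95.02 to 281 CPM. Cpt2 was at 15.3 to 26.1 CPM in progenitors and 7.22 to 17.6 CPM in macrophages, against 20.1 to 64.7 CPM in adipocytes.

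In macrophage-gated nuclei Hadha was the member that edgeR called with HFD. It was at 56.3, 44.3 and 52.7 CPM in C, CC and CCC, at 95.8 and 109.6 CPM in H and HH, at 71.1 and 88.9 CPM in HC and HHC, at 56.8 CPM in CCH and at 94.0 CPM in HCH. The HFD and weight loss libraries were all above the chow range, as was HCH, and CCH was just above its upper end. Both weight loss libraries were above chow for 17.9% of all genes in this gate. The share with HFD above chow is not given for macrophages. The edgeR log2 fold change was 0.86 for HFD (SE 0.198, adjusted p = 0.0135) and 0.61 for weight loss (SE 0.201, adjusted p = 0.111). The HFD call was lost with sequencing set as a covariate (0.71, edgeR adjusted p = 0.0788), without H (0.95, 0.0732) and without HH (0.75, 0.145). In the macrophage gate 8 adipocyte genes kept out of the gate summed to 377 and 758 CPM in H and HH and to 1081 to 4129 CPM in chow, and the part of this RNA in the Hadha values was not tested.

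The partner gene Hadhb was at 40.7, 43.3 and 43.9 CPM in macrophages of C, CC and CCC and at 63.0 and 49.6 CPM in H and HH, and did not pass (edgeR log2 fold change 0.27, SE 0.212, adjusted p = 0.363). Cpt1a lay between 113 and 161 CPM in these cells, with both weight loss libraries below every chow library, as for 14.8% of genes. Its edgeR log2 fold change was -0.17 for HFD (SE 0.177, adjusted p = 0.502) and -0.30 for weight loss (SE 0.179, adjusted p = 0.367). Of the 9 members, Hadha alone was called higher and none lower with HFD, against 15.5% and 12.8% of 13380 genes.

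Pdk4 in macrophages was at 7.43, 6.19 and 1.46 CPM in C, CC and CCC, at 13.3 and 8.69 CPM in H and HH, at 0.523 and 0.659 CPM in HC and HHC, at 6.87 CPM in CCH and at 8.68 CPM in HCH. H and HH were above the chow values, a separation whose share over all genes is not given here. EdgeR did not call Pdk4 with HFD in this gate (log2 fold change 0.80, SE 0.522, adjusted p = 0.277). Both weight loss libraries were the lowest, on 1 and 3 UMIs, but CCC, with 1 UMI, came near them. In the edgeR fit Pdk4 was the 1 member lower after weight loss (log2 fold change -3.18, SE 0.776, adjusted p = 0.0375) and none was higher, against 2.48% and 4.47% of genes. The log2 fold change stayed between -3.49 and -2.71 over 15 alternatives, but 7 of 15 kept the call. It was lost in edgeR fits without CC, HHC, HC, HH, H or C, at adjusted p from 0.0706 to 0.212, and also with sequencing set as a covariate (0.159) and with Scrublet doublets removed (0.0839). The 8 adipocyte genes kept out of the gate came in the macrophage gate to 12.4, 53.7 and 16.2% of their adipocyte level in C, CC and CCC and to 16.5 and 18.5% in HC and HHC, with Pdk4 at 32.4, 12.8 and 10.5 CPM in adipocytes of C, CC and CCC. The part of this RNA in the macrophage values of Pdk4 was not tested. By plain CPM both weight loss libraries lay below all chow libraries for Cpt1a, Cpt1b and Pdk4, as for 14.8% of genes. They lay above them for Acadl and Hadha, as for 17.9% of genes.

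In progenitor-gated nuclei none of the 9 was called by edgeR with HFD or after weight loss, where 15.2% and 1.00% of 14456 genes were. At an unadjusted p under 0.05, 2 members passed for HFD (Acadm and Acadvl, both lower) and 0 for weight loss, against 32.2% and 12.9% of genes, and DESeq2 called 0 in both. Pdk4 in progenitors was at 20.4, 8.60 and 6.95 CPM in C, CC and CCC, at 12.3 and 16.9 CPM in H and HH, at 4.38 and 8.76 CPM in HC and HHC, at 9.24 CPM in CCH and at 12.5 CPM in HCH. HFD thus lay within the chow range there, with an edgeR log2 fold change of -0.05 (SE 0.465, adjusted p = 0.948). Cpt1a was at 52.4 to 70.1 CPM in chow progenitors and at 98.7 and 79.0 CPM in H and HH (edgeR log2 fold change 0.31, SE 0.220, adjusted p = 0.356). Hadha was at 46.1 to 55.9 CPM in chow and 69.1 and 69.7 CPM in H and HH (0.21, SE 0.200, edgeR adjusted p = 0.492). With HFD it was at 95.4 to 109 against 56.2 to 68.4 CPM in endothelial-gated and 63.3 to 69.3 against 52.1 to 58.4 CPM in mesothelial-gated nuclei. In smooth muscle or pericyte-gated nuclei HFD (28.3 to 98.9 CPM) spanned the chow range (55.6 to 72.1 CPM). Other members separated from chow there too. Cpt1a was higher in endothelial-gated nuclei (83.2 to 103 against 58.4 to 67.7 CPM). Hadhb and the sparse Acadvl were higher in mesothelial-gated nuclei, and Pdk4, on few UMIs, in smooth muscle or pericyte-gated nuclei. Acadm was lower in mesothelial-gated (37.4 to 51.0 against 51.6 to 100 CPM) and smooth muscle or pericyte-gated nuclei. The share of all genes with HFD above chow is not given outside adipocytes. These separations are thus not read as results about the members.

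**Figure D4:**
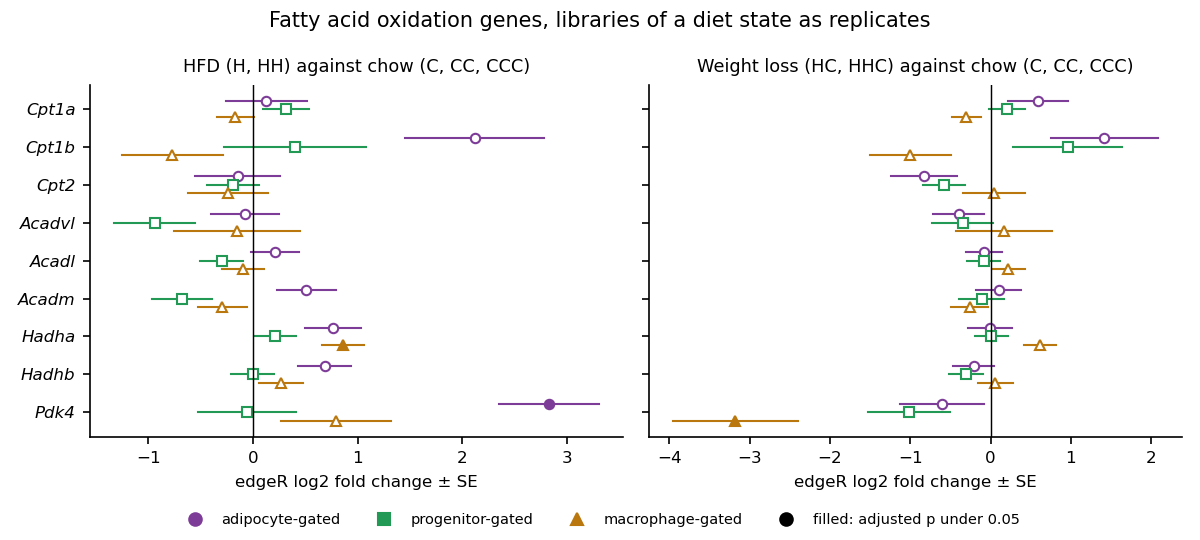
EdgeR log2 fold change with its standard error for each gene in adipocyte-, progenitor- and macrophage-gated nuclei, HFD against chow on the left and weight loss against chow on the right; filled markers have an adjusted p under 0.05. The filled markers are Pdk4 in adipocytes (2.83) and Hadha in macrophages (0.86) with HFD, and Pdk4 in macrophages (-3.18) after weight loss.

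Other genes of the pathway were followed in 6 lists of 66 genes, 62 of which were tested in adipocyte-gated nuclei. With HFD 5 rose and 2 fell in the edgeR fit, against 11.5% and 5.64% of all genes, and their median log2 fold change was -0.02. At an unadjusted p under 0.05, 20 of the 62 passed, against 36.4% of all genes. DESeq2 called 6 higher and 5 lower, with Rxra, Acadsb and Ppard lower there in addition, against 11.7% and 7.09% of all genes. None passed for weight loss, where 6 were under an unadjusted p of 0.05, against 11.5% of all genes, DESeq2 called 0, and the median was -0.15.

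Of the activation and carnitine shuttle list, 1 of 9 tested genes rose, Slc25a20, the carrier that takes acyl-carnitines across the inner membrane. Slc25a20 was at 54.7 to 68.9 CPM in chow and at 170 and 160.4 CPM in H and HH (edgeR log2 fold change 1.09, SE 0.239, adjusted p = 0.0207). Of 16 other mitochondrial β-oxidation enzymes, Etfb rose, a subunit of the flavoprotein that takes electrons from the acyl-CoA dehydrogenases (1.08, SE 0.233, edgeR adjusted p = 0.0201), and the median of the list was 0.41. In the peroxisomal list of 11 tested genes the thiolase Acaa1b rose (2.48, SE 0.300, edgeR adjusted p = 0.00511), and Abcd2, a peroxisomal importer of fatty acids, fell (-0.94, SE 0.272, edgeR adjusted p = 0.0450).

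Of 11 regulators, 1 fell and 0 rose in edgeR (3 were lower in DESeq2), with a list median of -0.79. The gene that fell was Acacb, whose product makes the malonyl-CoA that inhibits carnitine palmitoyltransferase 1. Acacb was at 1595 CPM in C, 609 in CC and 352 in CCC, at 209 and 185 CPM in H and HH, at 589 and 339 CPM in HC and HHC, at 586 CPM in CCH and at 164 CPM in HCH. The HFD libraries, HCH and, narrowly, HHC were below every chow library, and the chow libraries spread widely among themselves. The edgeR log2 fold change of Acacb was -2.44 (SE 0.689, adjusted p = 0.0421). It was -1.50 without C (edgeR adjusted p = 0.0399). Over 15 alternatives the value ran from -3.41 to -1.50 and the call held in 11. Among those that lost it were the edgeR fits without CC (adjusted p = 0.0745), without H and without HH. None of the 10 genes of pyruvate dehydrogenase and its other kinases and phosphatases passed in edgeR, 1 was under an unadjusted p of 0.05, DESeq2 called 0, and their median was 0.04. Of 5 tested genes that respond to PPARs, which are receptors for fatty acids, Plin2, a lipid droplet coat protein, rose (1.69, SE 0.252, edgeR adjusted p = 0.00725), and so did Angptl4, an inhibitor of lipoprotein lipase (1.53, SE 0.298, edgeR adjusted p = 0.0148). The calls of Slc25a20, Etfb, Abcd2, Acacb and Angptl4 each held in 9 to 12 of 15 alternatives, and those of Acaa1b and Plin2 in 14. Of these 7 calls, 7 were lost without HH, 5 without H, 5 without CC, 1 without CCC, 2 with plain library totals and 3 with sequencing set as a covariate.

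In macrophage-gated nuclei 5 of 62 list genes rose with HFD and 10 fell in the edgeR fit, against 15.5% and 12.8% of all genes, with a median of -0.28. The genes that rose were Acad12, Pdk1, Plin2, Ucp2 and Angptl4, led by Plin2 at 2.32 (SE 0.242, adjusted p = 0.000952). Among the genes that fell were Acsl1, Acadsb, Acad11, Ehhadh, Rxra, Acacb, Acaca, Ppara and Ppard. Of the 15 calls, 13 were lost without H and 13 without HH, all but Plin2 and Acacb, while 5 were lost without CC, 3 without C, 3 without CCC, 1 with the stricter gate and 10 with sequencing set as a covariate. With that covariate Ucp2 was at 0.60 in place of 1.197, Rxra at -0.79 in place of -1.88 and Ppara at -4.27 in place of -6.62 (edgeR adjusted p = 0.260, 0.179 and 0.157). The adipocyte genes kept out of the gate were lower in the macrophage gate of H and HH as well, and Ppara had 38.2 CPM in CC, 2.83 in C and 5.85 in CCC. Summed, those adipocyte genes came in the macrophage gate to 53.7% of their adipocyte level in CC against 9.59 to 18.5% in C, CCC and the weight loss and short HFD libraries and 2.62 and 4.63% in H and HH. The part of this free RNA in the genes that fell was not tested. After weight loss edgeR called 1 of the 62, Plin2, which was higher (1.55, SE 0.240, edgeR adjusted p = 0.00612). DESeq2 called Plin2 higher and Acacb lower, against 5.16% and 3.63% of all genes.

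**Figure D5:**
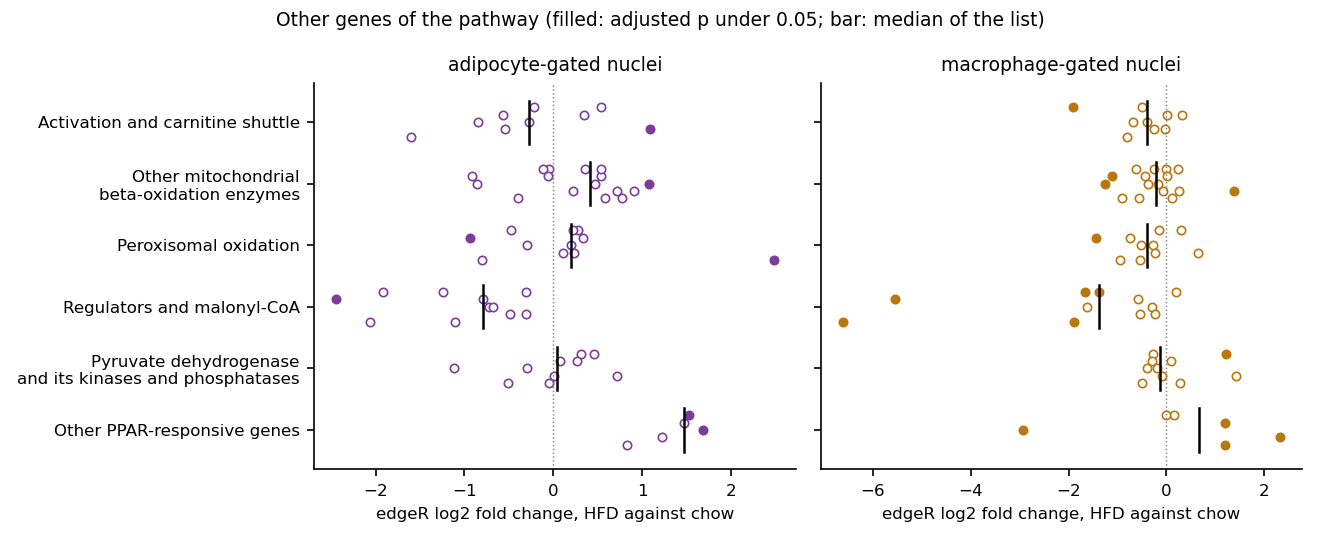
EdgeR log2 fold change with HFD of each tested gene in 6 pathway lists, in adipocyte-gated nuclei on the left and macrophage-gated nuclei on the right; filled circles have an adjusted p under 0.05 and the bar is the list median. In adipocytes the highest filled gene was Acaa1b at 2.48 and the lowest Acacb at -2.44.

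Genes with the adipocyte pattern most like that of each member were listed by Pearson's r of log2 CPM over the 9 libraries, among 8806 genes with at least 10 UMIs in each library. Cpt1b was too sparse to enter. The 9 points share libraries, depth and diet, so r is given as a description. For Pdk4 these were Higd1a (r = 0.987), Gm10501 (0.985) and Ngrn (0.984), and for Hadhb they were Stx12 (0.989), Smim15 (0.989) and Angptl4 (0.983). Hadha was closest to Kxd1 (0.990), Clec2d (0.982) and Etfdh (0.978), the last an enzyme that passes electrons from β-oxidation to ubiquinone. Acadl was closest to Eci1 (0.974), an isomerase of β-oxidation, Ifi35 (0.969) and Tmem140 (0.967), and Acadm to Cox6a1 (0.967), Eif5a (0.966) and Sncg (0.963). Cpt1a was closest to Tmem45b (0.979), Cpt2 to Uck1 (0.934) and Acadvl to Slc39a7 (0.927).

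Among the members themselves, Pdk4, Hadhb, Hadha and Acadl had the highest r with one another over the 9 libraries. By plain CPM all of these were above chow in both H and HH, as were 37.1% of genes. The spread of r over all genes is not given, so this too is a description. The r of Pdk4 was 0.954 with Hadhb, 0.911 with Hadha and 0.919 with Acadl, and that of Hadha with Hadhb was 0.912. Cpt1a stood outside this group, with r of -0.10 with Pdk4 and -0.71 with Cpt2.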

How the data were processed

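The deposited matrices hold counts: UMI counts per gene and barcode that the authors made with Cell Ranger 6.1.2 on the mm10 10x reference with intronic reads included. Their later doublet removal, integration and tests of single nuclei were not used. Members and gene lists were chosen with earlier results of these data known. Named genes were all 9 members, plus list genes past the threshold and the 3 genes most like each member. A gene of the lists that passed the threshold is counted but not reported here by name.

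Nuclei with 500 to 3000 genes and at most 40000 UMIs were kept. Totals exclude Malat1 and the mitochondrial genes. A marker counted for a nucleus when its UMIs exceeded the rate of the library (Poisson p under 0.05). A class needed 3 markers and a share of its markers at least 2 times that of the next class. Doublets were not removed in the main values. Scrublet calls (scanpy 1.11.5) were removed as an alternative. UMIs were summed per library and class and scaled to CPM. Sums were tested with edgeR 4.0.16 (quasi-likelihood, TMM, Benjamini-Hochberg over all genes) in R 4.3.3, with 4 residual degrees of freedom, and with DESeq2 1.42.0. Positions came from GENCODE vM21, in which 32158 of 32285 gene identifiers matched. No column of another series was used. Intervals (95%) cover counting error only. Alternatives were TMM factors or plain totals, no filter on low counts, sequencing set as a covariate, each library left out, a stricter gate (3 times), no upper limit on genes, at least 1000 UMIs, and other control libraries.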

Additional observations from a re-analysis of the deposited data

How the results depend on the processing

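The pair ratios rest on 1 library per group, and depth limits Cpt1b in adipocytes and Pdk4 in macrophages, with UMIs in single digits in some libraries. The rise of Pdk4 with HFD in adipocytes kept its direction under every alternative that was run. Of 297 ratios of members in library pairs under an alternative, 18 changed sign, 5 with TMM factors, 5 with no upper limit on genes and 6 against C in place of CC. In 17 of the 18 the reported ratio had not reached the threshold. The other was Pdk4 in CCH, at -0.47 against C in place of CC. Against C, Acadm in CCH was at 0.60 in place of -0.36 and Cpt2 in HH at -0.46 in place of 0.30, and with TMM factors Acadl in H with C was at -0.32 in place of 0.25. The causes of the changes were not tested. No paired analysis was run. Each group had a single library, and the replicate number 1 that all share gives no pairs. By age C matches H, CC matches HC and CCC matches HHC, and a fit with age as a block was not run.

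With TMM factors 3 members were higher and 1 lower in H with C, against 18.3% and 26.8% of genes, and 0 were lower in HC with CC. With no upper limit on genes 1 member was lower in H with C, 0 in HC with CC, 0 in HHC with CCC and 1 in CCH with CC, where 1 was higher, and 2 were higher in HCH with CCH, as with the stricter gate and with Scrublet doublets removed. Against CC in place of CCC, a control chosen after seeing the data, 2 members were higher in HHC. Apart from H with C under TMM factors, shares over all genes are not given for these settings. The counts are thus not read as results about the members.

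Shares of all genes called higher with plain totals, no filter or the covariate are not given here. Member counts under these settings are thus not read as results about the members. For HFD in adipocytes edgeR called 3 members higher with plain library totals and 2 with no filter on low counts or with sequencing set as covariate. DESeq2 called 2 members higher, against 11.7% of genes. Over fits that left out 1 library this count ranged from 0, without H or without HH, to 3, without C. Of all genes 16 to 1721 were then higher, with 16 without HH, 234 without H and 418 without CC, and 1 to 1191 were lower. Genes called lower numbered 361 with plain totals, 1557 with no filter and 1303 with no upper limit. For weight loss 35 genes were called in adipocytes, and 226 (DESeq2), 2 (plain totals), 871 (no filter), 18 (sequencing set), 151 (no upper limit) and 11 (Scrublet) under the alternatives, and 1 to 107 with a library left out.

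In macrophages, with sequencing set as covariate, 0 members were higher and 1012 genes higher and 890 lower for HFD, and for weight loss 0 members were lower and 291 genes were higher. Weight loss gave 1226 genes higher and 852 lower with no filter and 1157 and 895 with no upper limit. With Scrublet doublets removed 0 members were lower after weight loss. Leaving out a library gave 574 to 2431 genes higher, 365 to 1913 lower and 0 to 1 members higher for HFD, and 293 to 718 genes higher, 97 to 281 lower and 0 to 1 members lower for weight loss. In progenitors the count for HFD was 3429 with no filter and 672 with sequencing set, and 297 to 2581 genes and 0 to 1 members with a library left out. For weight loss it was 333 (DESeq2), 1084 (no filter) and 33 (sequencing set), and 35 to 234 with a library left out.

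The reversed edgeR values in adipocytes were values that the reported fit had not called. For HFD Cpt2 was at 0.15 and Acadvl at 0.19 with plain totals, Acadvl at 0.091 with no upper limit and 0.011 with Scrublet, and Acadl at -0.010 with sequencing set. With a library left out Cpt1a ranged from -0.18 to 0.39, Cpt2 from -0.30 to 0.28 and Acadvl from -0.36 to 0.19. For weight loss, with sequencing set, Acadl was at 0.048, Acadm at -0.10, Hadha at 0.28, Hadhb at 0.021 and Pdk4 at 0.22, and Hadha was at 0.0089 in DESeq2 and 0.060 with plain totals. With a library left out Acadl ranged from -0.16 to 0.049, Acadm from -0.10 to 0.32, Hadha from -0.17 to 0.28, Hadhb from -0.32 to 0.022 and Pdk4 from -0.89 to 0.22.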
